A study of Rattus norvegicus with 13 samples.

Results

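Genes that make, transfer and process N-glycans were followed in rat articular chondrocytes, the cartilage-forming cells of the joint, cultured with or without glucosamine and with or without interleukin-1β (IL-1β). The set held 50 genes listed by symbol in 6 roles, and a gene was measured by Affymetrix Rat Genome 230 2.0 probe sets annotated to that gene alone. Of the 50 genes, 48 had such a probe set and all 48 entered the test, out of 13748 genes tested on the arrays; Alg6 and Alg13 were not analysed here. Where a gene had several probe sets, the brightest, by mean log2 signal over the arrays, stood for it. The cells were taken from femoral head cartilage of male Wistar rats (age 2 months), were pooled at the second passage and were seeded into separate flasks, so that each array was 1 flask of 1 pool of cells. The groups were glucosamine plus IL-1β (20 mM glucosamine for 20 hours, with 10 ng/ml IL-1β added after 6 hours and kept for 14 hours; 4 arrays), glucosamine alone (20 mM for 20 hours; 2 arrays), IL-1β alone (10 ng/ml for 14 hours; 4 arrays) and untreated cells (3 arrays). These p-values therefore measured the spread among flasks and not among animals.

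N-glycans are sugar trees that are first built on the lipid dolichol in the membrane of the endoplasmic reticulum (ER) and then moved as 1 block to asparagine residues of proteins by the oligosaccharyltransferase complex. Glucosidases and mannosidases then trim the block while the protein folds, a folding sensor puts glucose back on unfolded proteins, and Golgi enzymes remodel it into branched, galactosylated and sialylated chains. Chondrocytes secrete large amounts of glycosylated matrix protein. Glucosamine is an amino sugar that cells can turn into UDP-N-acetylglucosamine, a sugar donor of this pathway, and IL-1β is the inflammatory cytokine used here as a challenge.

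With glucosamine alone more of these genes were called higher than lower, and with IL-1β alone more were called lower than higher. Glucosamine alone raised 11 of the 48 genes (22.9%) and lowered 3 (6.25%), against 10.4% of all genes called higher and 9.37% called lower in that comparison, and the median log2 fold change was 0.18 for the 48 genes and 0 for all genes. IL-1β alone raised 3 (6.25%) and lowered 18 (37.5%), against 15.5% and 15.3% of all genes, with a median of -0.18 for the 48 genes and 0.09 for all genes. Both comparisons use the same 3 untreated arrays, and the 21 IL-1β calls became 13, 12 and 13 without untreated replicate a, b or c. The calls over all genes were not counted in those 3 fits. A call means an adjusted p below 0.05 in limma, with Benjamini-Hochberg adjustment over all 29263 probe sets tested.

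With both agents present, 26 genes (54.2%) were higher and 5 (10.4%) lower than with IL-1β alone (15.8% and 14.8% of all genes), and the median log2 difference was 0.34, against 0.03 for all genes. Set against untreated cells, glucosamine plus IL-1β left 14 genes (29.2%) higher and 7 (14.6%) lower (16.6% and 14.7% of all genes, so that the share of falls was near that of the arrays at large), with a median of 0.11 (all genes 0.13). IL-1β added on top of glucosamine moved none of the 48 genes past the threshold in limma (1.45% of all genes were higher and 1.13% lower). At an unadjusted p below 0.05, 4 genes were lower (Gmppb, Stt3a, Man1a1 and Man2a2) and 0 higher in that comparison. The analysis of variance with Tukey's test called 1, and limma with array weights called 2. The share of all genes was not counted in these 3 ways, so whether these counts exceed it is not known. Glucosamine against untreated and glucosamine plus IL-1β against IL-1β share no array. Of the 11 genes higher in glucosamine than in untreated cells, 10 were among the 26 higher with both agents than with IL-1β (90.9% of the 11 and 38.5% of the 26), and the 3 lower ones were all among the 5 lower ones. The same overlap was not counted over all genes, and whether it is particular to these genes was not tested.

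**Figure D1:**
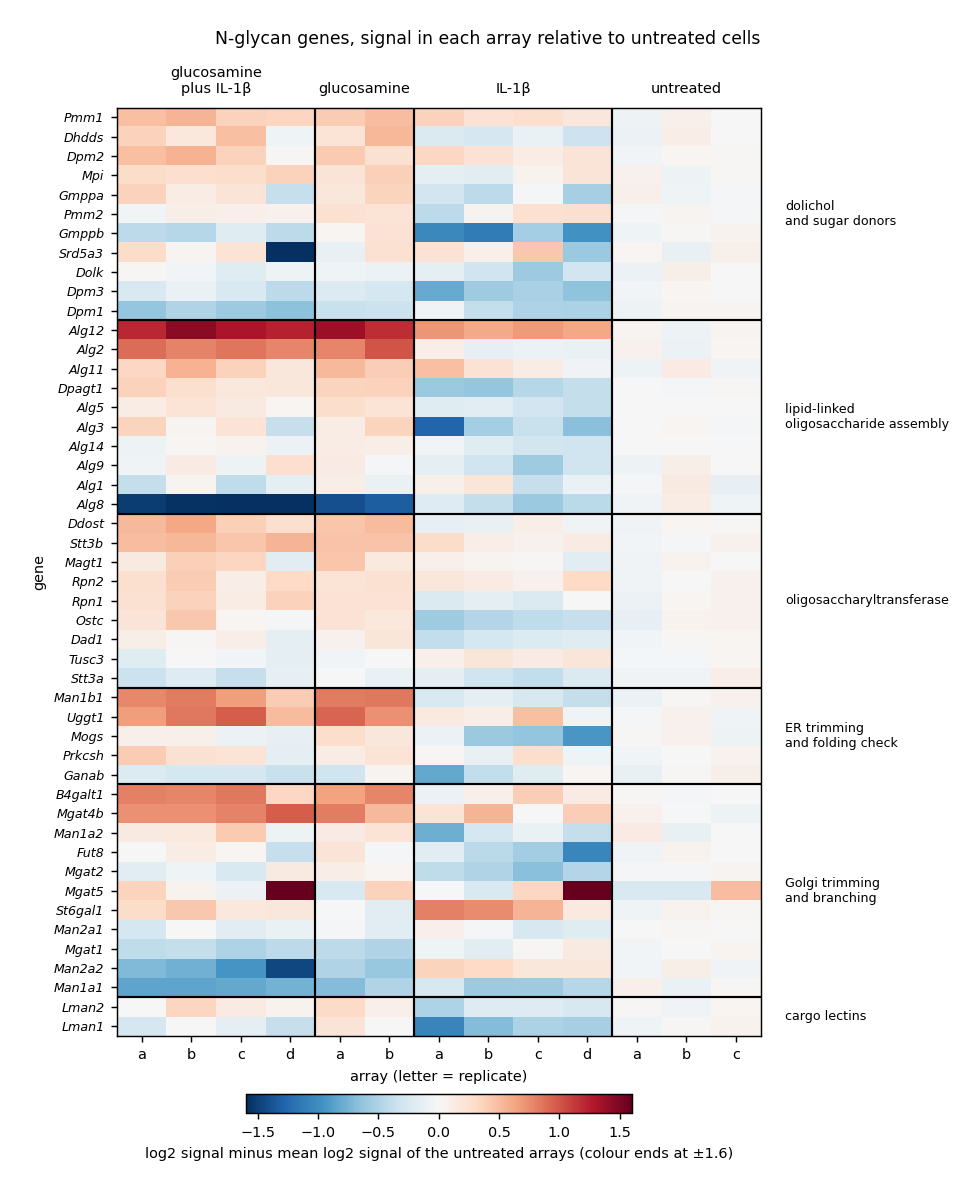
Each row is 1 of 48 N-glycan genes, ordered by role and by the response to glucosamine, and each column 1 of the 13 arrays; colour gives the log2 signal minus the mean log2 signal of the untreated arrays. The Alg12 row is red and the Alg8 row blue in all 6 glucosamine-treated arrays, while the Gmppb, Dpm3 and Lman1 rows are blue in the 4 IL-1β arrays; replicate d differs from its group for Mgat5 and, with glucosamine plus IL-1β, for Srd5a3.

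The largest rise and the largest fall with glucosamine both lay among the 10 measured genes that assemble the lipid-linked oligosaccharide. Of these 4 (40%) rose and 1 (10%) fell, against 10.4% and 9.37% of all genes. Each role holds few genes, and differences between roles were not tested. Alg12 (probe set 1372902_at), a mannosyltransferase acting on the lumenal side of the ER, had signals of 182, 214, 195 and 186 in glucosamine plus IL-1β cells and 204 and 179 in glucosamine cells, against 128, 119.7, 126 and 121 in IL-1β cells and 81.1, 74.6 and 81.2 in untreated cells. The 6 glucosamine-treated arrays lay above all 7 others, and the IL-1β arrays lay above the untreated arrays without overlap. The log2 fold change was 1.28 ± 0.09 (SE; adjusted p = 2.83e-06, limma) for glucosamine against untreated, or 2.42-fold, and 0.65 ± 0.08 (adjusted p = 5.01e-05) for IL-1β against untreated.

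Alg2 (1374459_at) adds early mannoses on the cytosolic side. Its signals were 547, 508, 532 and 503 in glucosamine plus IL-1β cells and 503 and 589 in glucosamine cells, against 315, 268, 275 and 271 in IL-1β cells and 307, 275 and 299 in untreated cells. The glucosamine-treated arrays did not overlap the others, while IL-1β and untreated arrays did; glucosamine raised it by 0.89 ± 0.09 log2 (adjusted p = 4.06e-05) without IL-1β and by 0.89 ± 0.07 (adjusted p = 2.54e-06) with it. The other 3 probe sets of Alg2 were dimmer (mean signals of 46.9 to 73.3). For glucosamine against untreated they gave 1.09 to 1.51 log2, and none passed the test (adjusted p of 0.12 to 0.255). For both agents against IL-1β all 3 passed, at 1.89 to 2.08 log2. Between IL-1β and untreated cells their log2 differences were -1.28 to -1.22, of which 1 passed the test, and that of the probe set standing for the gene was -0.06; the disagreement was not tested.

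Alg8 (1375042_at), a glucosyltransferase that adds the second glucose to the lipid-linked block, went the other way. Its signals were 73.5, 69.9, 68.9 and 68.1 in glucosamine plus IL-1β cells and 79.4 and 83.9 in glucosamine cells, against 182, 161, 139 and 155 in IL-1β cells and 201, 228 and 201 in untreated cells. Every glucosamine-treated array was below every array without glucosamine. The log2 fold change was -1.36 ± 0.11 (adjusted p = 7.45e-06) for glucosamine against untreated, a level 2.57-fold lower, and -1.18 ± 0.08 (adjusted p = 1.27e-06) for glucosamine plus IL-1β against IL-1β.

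The upstream sequences of Alg12 and Alg2, with the 2 largest rises, and of Alg8, with the largest fall, are shown because the stress elements through which ER genes can respond together were searched in them. They are the 250 bases before the RefSeq transcript start in the GRCr8 assembly, 5′ to 3′ on the strand of the gene, with the half-sites CCAAT and CCACG, on either strand, in capitals: Alg12 at chr7:121788984-121789233 (minus strand), Alg2 at chr5:66568888-66569137 (minus strand) and Alg8 at chr1:161095372-161095621 (plus strand).
Alg12: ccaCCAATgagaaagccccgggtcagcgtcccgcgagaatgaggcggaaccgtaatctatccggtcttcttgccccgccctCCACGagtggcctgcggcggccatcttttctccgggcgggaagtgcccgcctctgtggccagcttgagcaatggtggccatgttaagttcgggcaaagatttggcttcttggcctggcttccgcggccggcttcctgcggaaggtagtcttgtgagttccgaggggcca
Alg2: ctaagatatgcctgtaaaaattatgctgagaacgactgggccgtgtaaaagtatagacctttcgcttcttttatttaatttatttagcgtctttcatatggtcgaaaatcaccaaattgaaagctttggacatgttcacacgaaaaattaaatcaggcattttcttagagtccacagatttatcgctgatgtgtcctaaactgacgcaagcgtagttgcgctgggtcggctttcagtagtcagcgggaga
Alg8: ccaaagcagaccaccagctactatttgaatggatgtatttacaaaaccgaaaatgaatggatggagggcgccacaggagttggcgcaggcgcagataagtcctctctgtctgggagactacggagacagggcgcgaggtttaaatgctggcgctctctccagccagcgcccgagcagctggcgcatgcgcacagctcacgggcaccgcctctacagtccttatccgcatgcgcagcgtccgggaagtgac
Alg12 held 1 CCAAT and 1 CCACG, at 247 and 169 bases before the start, and neither half-site was in the Alg2 or Alg8 window. Promoters of 48 of the 50 genes were matched, in 51 windows. The ER stress element ERSE (CCAAT and CCACG with 9 bases between), ERSE-II (ATTGG and CCACG with 1 base between) and the unfolded protein element UPRE (TGACGTGG) were in none of the 51 windows on either strand, and in 0.0657%, 0.0418% and 0.52% of all 33469 promoter windows of the same length. Searched after those elements were not found, CCACG alone was in 24 of the 51 windows (47.1%, against 27.2% of all) and CCAAT alone in 18 (35.3%, against 34.0% of all); the median GC content was 58.4% in the 51 windows and 51.2% in all. Canx and Calr, ER chaperone genes outside the 50, did hold an ERSE, and Fpgt and Nans, sugar donor genes outside the 50, a UPRE. Each element was in 2 of 50 windows (4%) of 45 other listed genes of the pathway. With shares this low over all windows, finding none in 51 was likely beforehand and says little about these genes. Such matches describe letters and not binding.

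The entry gene of the assembly line, Dpagt1 (1372270_at), whose enzyme puts the first sugar on dolichol phosphate, responded to both agents in opposite directions. Its signals were 409, 376, 356 and 358 in glucosamine plus IL-1β cells and 406 and 406 in glucosamine cells, against 210.1, 206, 231 and 242 in IL-1β cells and 315, 312 and 321 in untreated cells. No IL-1β array overlapped the untreated range, which lay below the glucosamine arrays. Its log2 fold change from untreated cells was 0.36 ± 0.08 with glucosamine (adjusted p = 0.0102) and -0.51 ± 0.07 with IL-1β (adjusted p = 1.51e-04), and glucosamine plus IL-1β stood 0.75 ± 0.06 log2 above IL-1β alone (adjusted p = 4.48e-06). The glucosamine call was lost without glucosamine replicate a or b (adjusted p = 0.0685 and 0.0747). A second probe set of Dpagt1, with a mean signal of 63.7, gave 0.39 ± 0.22 with glucosamine (adjusted p = 0.357) and -0.71 ± 0.18 with IL-1β (adjusted p = 0.0139).

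Among the other assembly genes, Alg5, which makes dolichol-phosphate glucose, rose with glucosamine (0.25 ± 0.07, adjusted p = 0.0355) and fell with IL-1β (-0.27 ± 0.06, adjusted p = 0.00609). Alg3 (1379521_at), the first lumenal mannosyltransferase, had signals of 198, 159, 180.4 and 119 in glucosamine plus IL-1β cells and 167 and 197 in glucosamine cells, against 64.4, 106, 121 and 97.3 in IL-1β cells and 154, 157 and 152 in untreated cells. Every IL-1β array was below every untreated array, with IL-1β replicate a the lowest; the log2 difference was -0.71 ± 0.21 (adjusted p = 0.0277), and the call was lost without untreated replicate a, b or c (adjusted p = 0.0776, 0.0861 and 0.076). Alg9, another lumenal mannosyltransferase, also fell with IL-1β (-0.34 ± 0.11, adjusted p = 0.0434). Alg1, Alg11 and Alg14 passed the test in no comparison, with log2 values of -0.17, 0.17 and 0.19 for both agents against IL-1β. Alg11 came nearer to the threshold against untreated cells, at 0.46 with glucosamine (adjusted p = 0.0629) and 0.36 with both agents (adjusted p = 0.0552).

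**Figure D2:**
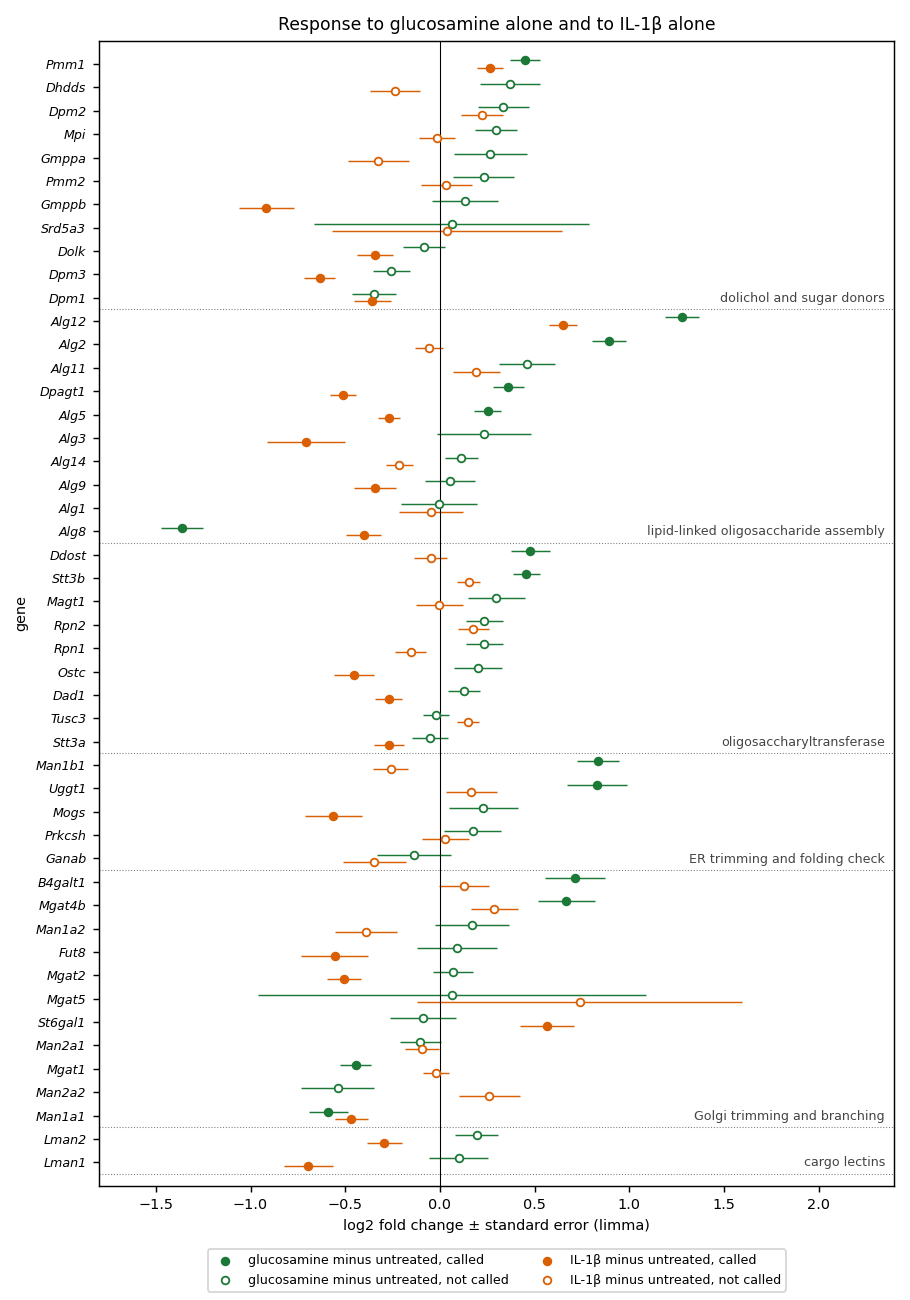
Log2 fold changes with standard errors from limma for glucosamine minus untreated (green) and IL-1β minus untreated (orange), by gene and role; filled points were called. The 2 comparisons share the 3 untreated arrays. Most filled green points lie right of 0 (11 of 14) and most filled orange points left of it (18 of 21).

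Of the 11 genes for dolichol and the mannose donors, 1 (9.09%) rose and 0 fell with glucosamine, against 10.4% and 9.37% of all genes. With IL-1β, 1 (9.09%) rose and 4 (36.4%) fell, against 15.5% and 15.3% of all genes. Pmm1 (1371455_at), a phosphomannomutase on the way to GDP-mannose, had signals of 455, 472, 421 and 412 in glucosamine plus IL-1β cells and 430.1 and 458 in glucosamine cells, against 419.7, 383, 391 and 369 in IL-1β cells and 307, 344 and 325 in untreated cells. All 10 treated arrays exceeded the untreated ones; the log2 fold change was 0.45 ± 0.08 with glucosamine (adjusted p = 0.00239) and 0.26 ± 0.07 with IL-1β (adjusted p = 0.0126, and 0.0685 without untreated replicate a). Between glucosamine plus IL-1β and IL-1β it differed by 0.17 ± 0.06 (adjusted p = 0.0698), which passed the test when the replicate letter was a block (adjusted p = 0.0482).

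Gmppb (1392701_at), the catalytic subunit of GDP-mannose pyrophosphorylase, had the deepest fall with IL-1β. Its signals were 55.9, 54.6, 65.1 and 55.7 in glucosamine plus IL-1β cells and 76.0 and 88.1 in glucosamine cells, against 36.5, 34.3, 51.3 and 38.3 in IL-1β cells and 71.2, 75.6 and 77.6 in untreated cells. The IL-1β arrays lay below all others, and the glucosamine plus IL-1β arrays lay between them and the untreated arrays. Against untreated cells the log2 fold change with IL-1β was -0.92 ± 0.15 (adjusted p = 5.98e-04), and with both agents -0.37 ± 0.15 (adjusted p = 0.0934), which did not pass. A second probe set of Gmppb, with a mean signal of 50.6, gave -2.01 ± 0.84 with IL-1β (adjusted p = 0.116, not called). For both agents against IL-1β it gave 0.62 ± 0.78 (adjusted p = 0.72, not called), against a called 0.54 for the brighter probe set.

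Dolichol-phosphate mannose synthase has 3 subunits, and their values differed in sign. Dpm3 (1372504_at), which anchors the catalytic subunit in the membrane, had signals of 332, 364, 332 and 294 in glucosamine plus IL-1β cells and 336 and 322 in glucosamine cells, against 225, 265, 274 and 250.4 in IL-1β cells and 382, 403 and 394 in untreated cells. The IL-1β arrays were lowest and the untreated arrays highest, with no overlap between any of the treated groups and untreated cells. Its log2 fold change was -0.64 ± 0.08 with IL-1β (adjusted p = 1.05e-04) and -0.26 ± 0.10 with glucosamine (adjusted p = 0.115). Dpm1, the catalytic subunit, fell with IL-1β (-0.36 ± 0.10, adjusted p = 0.0192) and with both agents (-0.58 ± 0.10 against untreated, adjusted p = 9.13e-04). Dpm2, the remaining subunit, was higher with both agents (0.35 ± 0.11, adjusted p = 0.04).

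Dolk, which phosphorylates dolichol, fell with IL-1β (-0.34 ± 0.09, adjusted p = 0.0203). Dhdds, a subunit of the enzyme that makes the dolichol chain, Mpi, which makes mannose phosphate, and Dolk were each higher with both agents than with IL-1β alone, by 0.47, 0.32 and 0.27 log2. Pmm2 and Srd5a3, the polyprenol reductase, were called in no comparison. Gmppa, the regulatory partner of Gmppb, was called only with the replicate letter as a block, for both agents against IL-1β alone (0.41 ± 0.15, adjusted p = 0.0725 without the block and 0.0139 with it). Srd5a3 had 30.3 in glucosamine plus IL-1β replicate d, against 208 to 246 in the other replicates of that group, and its standard errors were 0.56 to 0.92 over the 6 comparisons.

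Of 9 oligosaccharyltransferase genes, 2 (22.2%) rose and 0 fell with glucosamine, against 10.4% and 9.37% of all genes. With IL-1β, 3 (33.3%) fell (Ostc, Stt3a and Dad1), against 15.3% of all genes. Stt3b (1389023_at) encodes 1 of the alternative catalytic subunits, the one that can glycosylate proteins after their synthesis. Its signals were 1062, 1085, 1027 and 1097 in glucosamine plus IL-1β cells and 1029 and 1035 in glucosamine cells, against 925, 812, 792 and 821 in IL-1β cells and 732, 739 and 789 in untreated cells. The glucosamine-treated arrays lay above all others, at 0.46 ± 0.07 log2 without IL-1β (adjusted p = 0.00103) and 0.35 ± 0.06 with it (adjusted p = 5.95e-04). A second probe set of Stt3b, with a mean signal of 400, gave 0.45 ± 0.15 (adjusted p = 0.0647, not called) and 0.64 ± 0.11 (adjusted p = 0.00142). Between IL-1β and untreated cells it gave -0.35 ± 0.12 (adjusted p = 0.0625), against 0.15 for the brighter probe set, and neither was called.

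Ddost (1372247_at), a non-catalytic subunit of the complex, had signals of 1800.1, 1917, 1633 and 1501 in glucosamine plus IL-1β cells and 1708 and 1782 in glucosamine cells, against 1144, 1158, 1344 and 1209 in IL-1β cells and 1209.9, 1280.2 and 1269.7 in untreated cells. All glucosamine-treated arrays lay above all arrays without glucosamine. The rise was 0.48 ± 0.10 log2 (adjusted p = 0.00805, and 0.081 without glucosamine replicate b) without IL-1β and 0.49 ± 0.08 (adjusted p = 7.45e-04) with it. Ostc, a small subunit of the complex that acts during protein synthesis, fell with IL-1β (-0.46 ± 0.11, adjusted p = 0.00726) and was 0.62 ± 0.10 log2 higher with both agents than with IL-1β (adjusted p = 6.33e-04). Rpn1, another non-catalytic subunit, was 0.43 log2 higher with both agents than with IL-1β and Dad1 0.29 higher, while Rpn2 was called only for both agents against untreated (0.27 ± 0.08, adjusted p = 0.029). Magt1 passed in no comparison.

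The 5 genes of ER trimming and the folding check held 2 (40%) that rose with glucosamine and 0 that fell, against 10.4% and 9.37% of all genes. Man1b1 (1371601_at) encodes the ER mannosidase that marks misfolded glycoproteins for disposal. Its signals were 637, 663, 595 and 497 in glucosamine plus IL-1β cells and 665 and 668 in glucosamine cells, against 315, 335, 312 and 287 in IL-1β cells and 349, 379.5 and 393 in untreated cells. The glucosamine-treated arrays lay above all others, by 0.84 ± 0.11 log2 (adjusted p = 3.20e-04) without IL-1β and 0.93 ± 0.09 (adjusted p = 1.04e-05) with it. A second probe set of Man1b1, with a mean signal of 20.4, showed 0.04 ± 0.58 for glucosamine against untreated and -0.43 ± 0.45 for both agents against IL-1β, so the rise rests on 1 of its 2 probe sets.

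Uggt1 (1368953_at) encodes the folding sensor that puts a glucose back on unfolded glycoproteins. It had signals of 167, 187, 205 and 149 in glucosamine plus IL-1β cells and 199 and 174 in glucosamine cells, against 116, 112, 145 and 99.8 in IL-1β cells and 104, 109 and 101 in untreated cells. The glucosamine-treated arrays did not overlap the others, and IL-1β replicate c was the highest of the arrays without glucosamine. The log2 fold change was 0.83 ± 0.16 (adjusted p = 0.00386, and 0.0542 without glucosamine replicate a) without IL-1β and 0.58 ± 0.12 (adjusted p = 0.00452) with it. Mogs, the glucosidase that takes off the outermost glucose, fell with IL-1β (-0.56 ± 0.15, adjusted p = 0.0169) and was 0.55 ± 0.14 log2 higher with both agents than with IL-1β (adjusted p = 0.0134). Ganab and Prkcsh, the subunits of the next glucosidase, passed in no comparison, at -0.14 and 0.17 log2 with glucosamine.

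**Figure D3:**
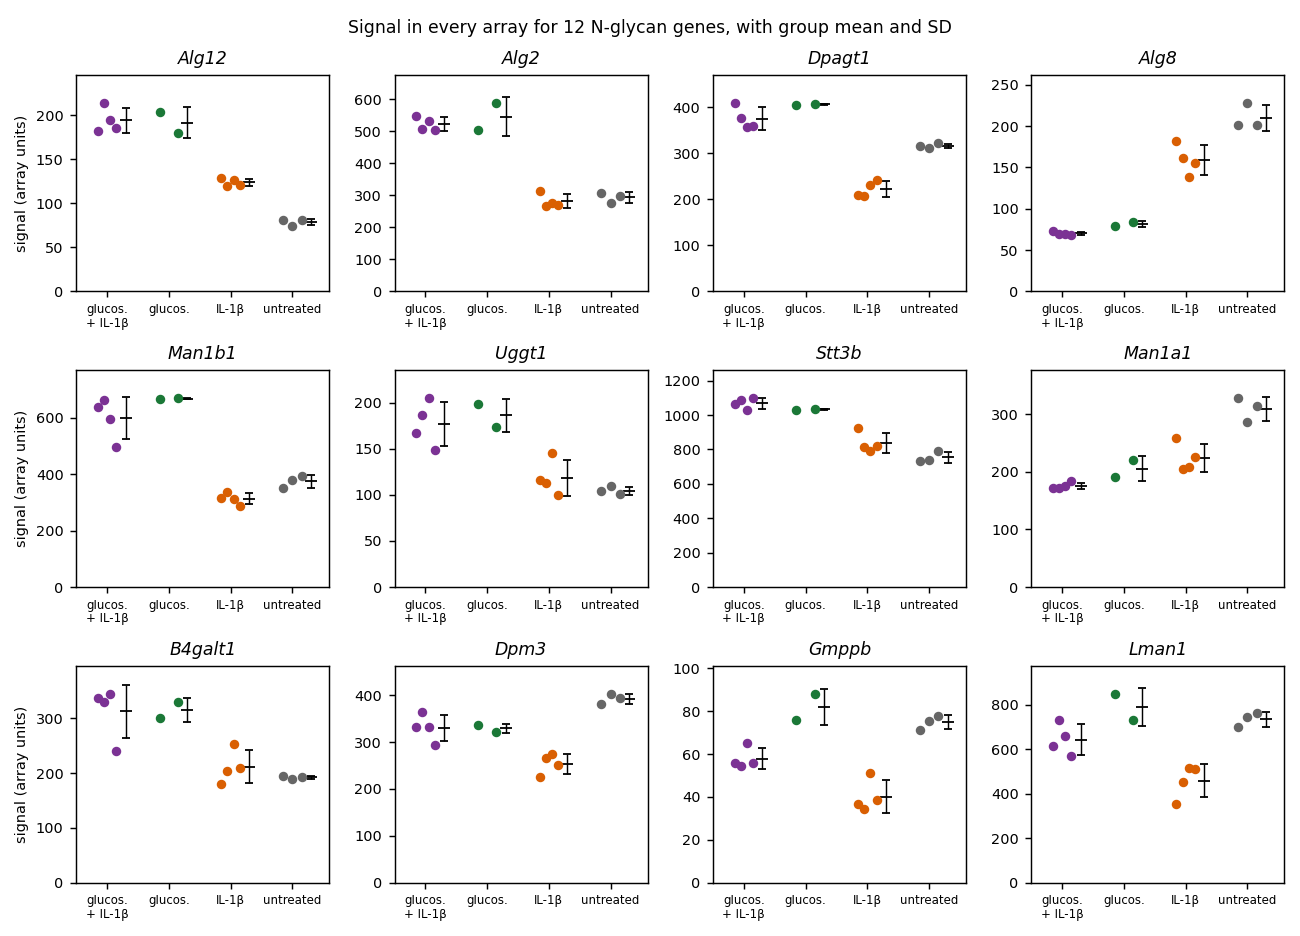
Signal in array units (linear, axis from 0) in every array for 12 genes, by group, with the group mean and SD beside the points; n = 4, 2, 4 and 3 from left to right. The glucosamine-treated arrays separate from the others for Alg12, Alg2, Dpagt1, Alg8, Man1b1, Stt3b and Uggt1, and the IL-1β arrays are the lowest for Dpagt1, Man1b1, Dpm3, Gmppb and Lman1.

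Among 11 Golgi genes, 2 (18.2%) were higher and 2 (18.2%) lower in glucosamine cells, against 10.4% and 9.37% of all genes. B4galt1 (1371073_at), which adds galactose to the branches, had signals of 337, 329.9, 345 and 241 in glucosamine plus IL-1β cells and 300.4 and 331 in glucosamine cells, against 180.2, 204, 252 and 209.5 in IL-1β cells and 194, 189 and 192 in untreated cells. The glucosamine arrays did not overlap the untreated ones, whereas glucosamine plus IL-1β replicate d lay below IL-1β replicate c. The log2 fold change was 0.71 ± 0.16 (adjusted p = 0.00923, and 0.0974 without glucosamine replicate b) with glucosamine and 0.56 ± 0.12 (adjusted p = 0.00529) for both agents against IL-1β. A second probe set, with a mean signal of 36.8, gave 0.63 ± 0.29 (adjusted p = 0.214) and 1.21 ± 0.23 (adjusted p = 0.00197). Another averaged 3.90, below the floor of 5.71, and passed in neither comparison.

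Mgat4b (1373560_at), a branching N-acetylglucosaminyltransferase, had signals of 225, 226, 235 and 265 in glucosamine plus IL-1β cells and 238 and 195 in glucosamine cells, against 158, 198, 134 and 178 in IL-1β cells and 143, 136 and 128 in untreated cells. All 4 glucosamine plus IL-1β arrays exceeded the IL-1β arrays, and both glucosamine arrays exceeded the untreated arrays; the log2 differences were 0.52 ± 0.11 (adjusted p = 0.0057) and 0.67 ± 0.15 (adjusted p = 0.00948, and 0.125 without glucosamine replicate a). Mgat1, which starts hybrid and complex chains, fell with glucosamine (-0.44 ± 0.08, adjusted p = 0.00323) and did so beside IL-1β (-0.40 ± 0.06, adjusted p = 6.50e-04). Mgat2, which acts after Mgat1, instead fell with IL-1β (-0.51 ± 0.09, adjusted p = 0.00118) and was 0.42 ± 0.08 log2 higher with both agents than with IL-1β.

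Man1a1 (1371988_at), a Golgi mannosidase that trims chains before branching, was lower in all 3 treated groups. Its signals were 173, 173, 175 and 184 in glucosamine plus IL-1β cells and 191 and 221 in glucosamine cells, against 259, 206, 209 and 225 in IL-1β cells and 328, 287 and 314 in untreated cells. None of the treated arrays reached the untreated range, and the 4 arrays with both agents were the lowest. Its log2 fold change from untreated cells was -0.59 ± 0.10 with glucosamine (adjusted p = 0.00222), -0.47 ± 0.09 with IL-1β (adjusted p = 0.00175) and -0.81 ± 0.09 with both (adjusted p = 2.77e-05). A second probe set of Man1a1, with a mean signal of 167, was not called with glucosamine (-0.28 ± 0.11, adjusted p = 0.138). It was called lower with IL-1β (-0.42 ± 0.09, adjusted p = 0.00614) and with both (-0.56 ± 0.09, adjusted p = 8.97e-04).

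St6gal1 (1370907_at), a sialyltransferase that caps galactose, was among the 3 genes that rose with IL-1β. Its signals were 90.0, 99.6, 82.6 and 83.8 in glucosamine plus IL-1β cells and 73.4 and 65.4 in glucosamine cells, against 129, 125, 108 and 82.2 in IL-1β cells and 70.2, 76.5 and 74.7 in untreated cells. The IL-1β arrays lay above the untreated arrays, at 0.57 ± 0.14 log2 (adjusted p = 0.0128, and 0.0555 without untreated replicate a), with replicate d nearest to them. Fut8, the core fucosyltransferase, fell with IL-1β (-0.55 ± 0.18, adjusted p = 0.0404) and was 0.50 ± 0.16 higher with both agents than with IL-1β (adjusted p = 0.0465). Mgat5, a branching enzyme, had 60.0 in replicate d of glucosamine plus IL-1β and 49.7 in replicate d of IL-1β, against 3.56 to 9.56 on the other 11 arrays, of which 4 were at or below the floor of 5.71.

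Both cargo lectins, which carry glycoproteins between the ER and the Golgi, fell with IL-1β (as did 15.3% of all genes), and neither passed with glucosamine alone. Lman1 (1368848_at) had signals of 612, 733, 657 and 567 in glucosamine plus IL-1β cells and 849 and 729 in glucosamine cells, against 354, 453, 517 and 509 in IL-1β cells and 698, 743 and 764 in untreated cells. The IL-1β arrays lay below all other arrays. Its log2 fold change was -0.70 ± 0.13 with IL-1β (adjusted p = 0.00177), and it was 0.50 ± 0.12 higher with both agents than with IL-1β (adjusted p = 0.0099). For Lman2 these values were -0.29 ± 0.09 (adjusted p = 0.0424) and 0.43 ± 0.09 (adjusted p = 0.00354).

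The response to IL-1β on top of glucosamine was then set beside the response in its absence, which uses other arrays. Over the 18 genes that fell with IL-1β alone the median log2 change was -0.15 with glucosamine and -0.46 without it, and over the 3 that rose it was 0.02 with glucosamine and 0.57 without it. The absolute change was smaller with glucosamine for all 21, but these genes were picked by the response without glucosamine, so the difference itself was tested as an interaction. It passed for 3 of the 48 genes, 2 higher and 1 lower, against 5.11% and 6.68% of all genes.

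Dpm3 and Dpagt1 had a positive interaction, meaning a fall with IL-1β that was smaller in the presence of glucosamine. For Dpm3 the IL-1β response was 0.00 ± 0.09 log2 with glucosamine and -0.64 ± 0.08 without it, a difference of 0.64 ± 0.12 (adjusted p = 0.00642). For Dpagt1 it was -0.12 ± 0.08 with glucosamine and -0.51 ± 0.07 without it, a difference of 0.39 ± 0.10 (adjusted p = 0.0361) that was not called in 9 of 13 analyses leaving out 1 array (adjusted p of 0.0525 to 0.134), those without any 1 of the glucosamine, the untreated, or the a or b replicates of the other groups, nor with the replicate letter as a block (adjusted p = 0.0638). Alg12 had a negative interaction (-0.63 ± 0.11, adjusted p = 0.0043), with an IL-1β response of 0.02 ± 0.09 with glucosamine and 0.65 ± 0.08 without it. Gmppb, with the deepest fall, had -0.50 ± 0.17 with glucosamine and -0.92 ± 0.15 without it, and its interaction did not pass (0.41 ± 0.22, adjusted p = 0.415).

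**Figure D4:**
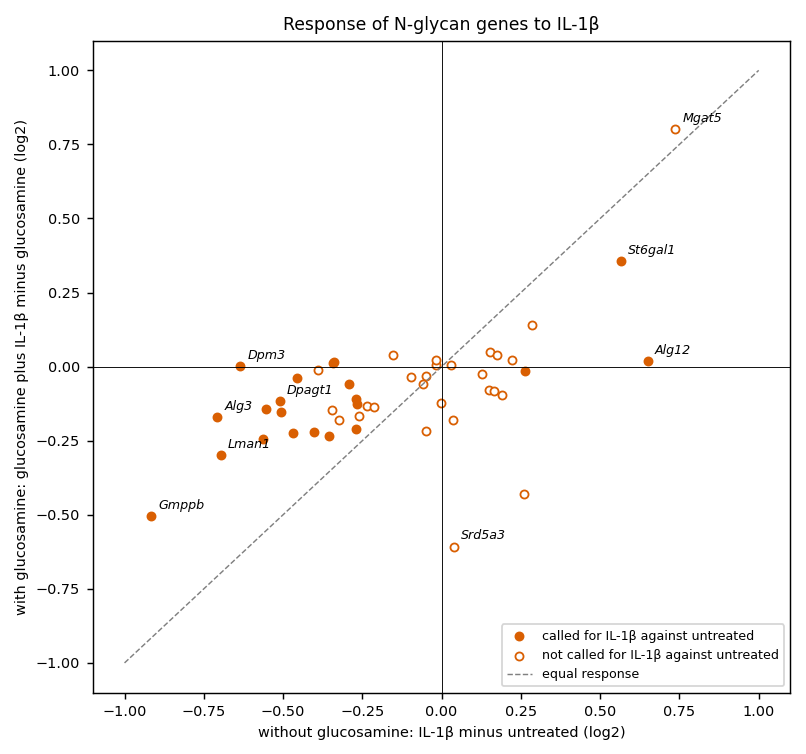
Each point is 1 of 48 genes: the x axis is its log2 response to IL-1β without glucosamine (IL-1β minus untreated) and the y axis its response with glucosamine (glucosamine plus IL-1β minus glucosamine), from arrays that do not overlap; filled points were called on the x axis. The filled points lie nearer to 0 on the y axis, which runs from -0.50 to 0.36 for them, than on the x axis; Mgat5 and Srd5a3 are the points that replicate d sets apart.

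Paralogous enzymes were compared as the within-array log2 ratio of 2 genes, with glucosamine against without it, by an exact permutation test that moved the arrays within each IL-1β level (700 arrangements, two-sided, smallest p 0.00143; 6 pairs, Benjamini-Hochberg adjusted). The ratio of Stt3b to Stt3a, the alternative catalytic subunits, was higher by 0.42 log2 with glucosamine (0.34 with IL-1β and 0.51 without it; exact p = 0.00143, adjusted p = 0.00286). That of Man1a1 to Man1a2 fell by 0.83 (exact p = 0.00143, adjusted p = 0.00286) and that of Man2a2 to Man2a1, the mannosidases acting after Mgat1, fell by 0.81 (p = 0.00143, adjusted p = 0.00286). The latter averages unlike values, -1.19 with IL-1β and -0.44 without it. Man2a2 by itself was not called in limma for glucosamine against untreated (-0.54, adjusted p = 0.0908). For both agents against IL-1β, Man2a2 had -1.23 ± 0.15 (adjusted p = 8.19e-05) and Man2a1 -0.04 ± 0.08 (adjusted p = 0.847), while Man1a2 was higher by 0.55 ± 0.15 (adjusted p = 0.0209). The ratio of Tusc3 to Magt1, the oxidoreductase subunits of the Stt3b complex, fell by 0.37 (exact p = 0.00286, adjusted p = 0.00429), and Tusc3 by itself fell for both agents against IL-1β (-0.25 ± 0.05, adjusted p = 0.00467). Pmm1 to Pmm2 and Gmppb to Gmppa did not pass (0.19, exact p = 0.11, adjusted p = 0.132, and 0.00, p = 0.993, adjusted p = 0.993).

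Around these enzymes, 52 of 58 other listed genes of N-glycan metabolism were tested, and 16 (30.8%) were higher and 1 (1.92%) lower with glucosamine, against 10.4% and 9.37% of all genes. The 13 other genes of the folding check included 6 of those that rose, among them Edem1 (1.12 ± 0.11, adjusted p = 2.82e-05) and Edem2, which take mannose-trimmed misfolded proteins to disposal, and the lectin chaperones Calr and Canx. Ngly1, which strips N-glycans from proteins in the cytosol, was the 1 that fell. With IL-1β, 9 (17.3%) were higher, near the 15.5% of all genes, and 13 (25.0%) lower, against 15.3%; St3gal3, a sialyltransferase, had the largest rise (2.09 log2), and Slc35a2, the UDP-galactose transporter, was among the falls (-0.99). Both agents against IL-1β gave 23 (44.2%) higher and 3 (5.77%) lower, against 15.8% and 14.8% of all genes. Both agents against untreated gave 16 (30.8%) higher and 5 (9.62%) lower, against 16.6% and 14.7%. Both agents against glucosamine gave 0 and 0 in limma, and the interaction 2 (3.85%) and 3 (5.77%), near the 5.11% and 6.68% of all genes.

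Over all arrays, mean signal ranged between 127 and 145 array units. Replicate d of the IL-1β and of the glucosamine plus IL-1β group stood apart, with 25519 and 25372 probe sets above the floor, against 22130 to 23489 on the other 11 arrays. Without both of these arrays the calls among the 48 genes were 20 for glucosamine, 25 for IL-1β, 26 for both against untreated, 33 for both against IL-1β, 0 for both against glucosamine and 4 for the interaction. The share of all genes called without them was not counted. Chondrocyte markers were present (11 of 14 measured, each above the floor on all 13 arrays). Their summed signal was 6363 to 7389 with both agents, 7888 to 8199 with glucosamine, 5651 to 6819 with IL-1β and 10221 to 11484 in untreated cells. All 6 markers of fibroblasts or dedifferentiated cells were also above the floor on every array. Their sum was 8673 to 10668 with both agents, 9050 to 10156 with glucosamine, 8393 to 9934 with IL-1β and 10309 to 11580.5 in untreated cells. The 7 measured leukocyte markers summed to 107 to 251 with both agents, 61.2 to 76.4 with glucosamine, 231 to 361 with IL-1β and 38.3 to 48.1 in untreated cells, with Ptprc and Itgam at the floor on 6 and 12 of the 13 arrays. Cd68, a macrophage marker, averaged 45.4 with both agents, 34.7 with glucosamine, 188 with IL-1β and -15.2 in untreated cells. The leukocyte markers Lyz2 and Csf1r did not follow Cd68, with lower means with IL-1β than with both agents. Csf1r was at the floor on 9 of the 13 arrays. Means of Ptprc, Cd3e, Laptm5 and Itgam were higher with IL-1β than with both agents, with smaller differences than for Cd68. The 6 muscle and fat markers summed to 722 to 965 with both agents, 613 to 641 with glucosamine, 1056 to 1692 with IL-1β and 421 to 450 in untreated cells. Among them Fabp4, a fat cell marker, averaged 98.9 with both agents, 25.8 with glucosamine, 817 with IL-1β and 15.3 in untreated cells. Most of the rest of the sum came from Myh1, a muscle marker. Adipoq and Plin1, the other fat cell markers listed, did not follow Fabp4. Their means were lower with IL-1β than with both agents, and they were at the floor on 8 and 5 of the 13 arrays. The 5 measured endothelial markers summed to 58.2 to 167 with both agents, 57.8 to 60.0 with glucosamine, 96.5 to 225 with IL-1β and 47.5 to 66.0 in untreated cells. The part of these marker shifts in the results was not tested, and in bulk RNA fewer cells of a type and less RNA per cell cannot be told apart.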

How the data were processed

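Gene expression was measured with 13 Affymetrix Rat Genome 230 2.0 arrays, 1 per flask. The deposited values are intensity signals per probe set that the authors scaled per array, and some of them are below 0. The submitters' processing notes name MAS5 (version 5), whereas the study's methods use that software for the scan files and another program, Probe Profiler, for the expression values; since MAS5 signals are never below 0, the deposited values were taken as those of Probe Profiler. The study removed arrays that failed its quality control, which left 2 glucosamine and 3 untreated arrays. Here the 57 control probe sets were left out of 31099, log2 was taken after raising signals below 5.71, the 25th percentile over the whole table, to that value, and 29263 of 31042 probe sets above the floor on at least 1 array were tested with limma 3.58.1 in R 4.3.3 (1 fit over 4 groups, 9 residual degrees of freedom, trended variance, two-sided), Benjamini-Hochberg adjusted over all tested probe sets. The code was checked on simulated data. Percentages of all genes are over the probe sets standing for the 13748 tested genes, 1 each; 20826 probe sets were annotated to 1 gene, 436 to several and 9780 to none.

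The genes and lists were chosen with earlier results of these data known. Signals per array were given for the genes with the largest called changes by role for glucosamine, and for IL-1β and the interaction over all roles. GEO's replicate letters deviated together only between the glucosamine plus IL-1β and IL-1β groups (4 pairs, r of 0.375 to 0.797), by the rule used a pairing. Arrays with unlike letters among a to c of these groups correlated as well (r of 0.333 to 0.561), so these values do not single out the letters. Without both replicate d arrays r was -0.001 to 0.0497 for like letters. The blocked value stands beside a result of that comparison, or of the interaction, whose call it changes. The number of arrays limits the precision. Promoters came from RefSeq (GRCr8). Alternatives included other floors, scaling, array weights, the replicate block and the methods' analysis of variance with Tukey's test. One sample field names glucosamine for all 13 samples; groups follow the sample titles.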

Additional observations from a re-analysis of the deposited data

Results flagged for a closer look

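In groups of 4, a gene was listed when its highest or lowest array stood far from the other 3 by Dixon's test. This held for 5 of 96 group and gene pairs, and chance gives about 1 in 20, or 4.8. Mgat5 was 60.0 in glucosamine plus IL-1β replicate d (others 6.37 to 8.66) and 49.7 in IL-1β replicate d (others 3.56 to 8.51). B4galt1 was 241 in glucosamine plus IL-1β replicate d, below the others (330 to 345). Gmppb was 65.1 in glucosamine plus IL-1β replicate c (others 54.6 to 55.9), and Alg2 was 315 in IL-1β replicate a (others 268 to 275). The 3 flags on replicate d belong to the arrays with the most probe sets above the floor.

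The response to IL-1β differed with and without glucosamine, by the interaction test in limma, for Dpm3 (0.64 log2), Dpagt1 (0.39) and Alg12 (-0.63).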

How the results depend on the processing

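Under array weights, the calls among the 48 genes became 26 for glucosamine against untreated, 34 for IL-1β against untreated, 32 for both agents against untreated, 2 for both agents against glucosamine and 14 for the interaction. A fit to the 2 groups alone gave 26 for glucosamine against untreated. The methods' analysis of variance and Tukey's test, with a stricter threshold, gave 9, 7, 9 and 10 for glucosamine, IL-1β and both agents against untreated and both agents against IL-1β, and 1 for both agents against glucosamine. Leaving out 1 array gave 10 to 17 for glucosamine against untreated, 12 to 24 for IL-1β against untreated, 14 to 22 for both agents against untreated, 28 to 34 for both agents against IL-1β, 0 for both agents against glucosamine and 2 to 4 for the interaction. With the replicate block the counts were 16, 20 and 23 for glucosamine, IL-1β and both agents against untreated. They were 33 for both agents against IL-1β, 0 for both agents against glucosamine and 2 for the interaction. The letters met the rule for a pairing only for both agents against IL-1β, where unlike letters among a to c correlated as well. Other floors, scalings and filters kept each count within 1.5 times. All these alternatives were counted for the 48 genes only. The share of all genes called in each was not counted, so whether a shift is particular to these genes was not tested.

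Over 53 results of the 17 genes with signals per array, 1478 alternatives kept direction and call in 1400, lost the call in 77 and turned the sign in 1: Man1b1 for both agents against untreated, at -0.047 log2 with the mean of its 2 probe sets. Of the losses, 23 came with Tukey's test, 9 with the mean of probe sets and 33 with 1 array left out. Beside the probe sets standing for the genes, 15 genes had 21 others. For glucosamine against untreated, 11 of the 21 gave the same call, 9 lost it, 1 gained one and 0 had the opposite call. For IL-1β against untreated these counts were 14, 6, 1 and 0, for both agents against untreated 8, 13, 0 and 0, and for both agents against IL-1β 16, 5, 0 and 0. A second block, run without both replicate d arrays and chosen after seeing the data, gave 33 calls for both agents against IL-1β. It too was counted for the 48 genes alone. The number of arrays, 2 with glucosamine alone and 3 untreated, limits the precision.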
